A study of Homo sapiens with 6 samples.

Results

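The 10 genes described here mark the absorptive cell of the intestinal lining, the enterocyte, and were followed in HCT116, a human colorectal carcinoma line, after treatment with 5aza. They were taken by symbol from 1 table of 16715 distinct identifiers: the transcription factor genes CDX1, CDX2 and KLF4, the brush border genes VIL1, ANPEP and DPP4, the absorptive genes CA2 and FABP1, and the surface and lectin genes CDH17 and LGALS4. All 10 had a row. The 5aza group had 3 libraries from cells given 5 µM for 48 hours and then fresh medium for 48 hours, and the control group had 3 libraries of the same line and the same passage range. The labels attach the treatment text to both groups, and a treatment tag tells them apart. The labels name the compound 5aza and code these libraries DAC; which azanucleoside was used is not settled by them. The study set out to examine transcripts after the treatment, which as background depletes DNA methyltransferases and so lowers DNA methylation in dividing cells. The labels do not say whether the 3 libraries of a group came from separate cultures, so p-values measure the spread between these libraries.

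Enterocytes arise from crypt progenitors, move up to the surface and build a brush border of microvilli that carries hydrolases and transporters. CDX2 and its relative CDX1 are homeobox factors that set intestinal identity, and work with HNF4A and GATA factors on enterocyte genes, while KLF4 accompanies exit from the cell cycle and is needed for goblet cells in the mouse colon. Colorectal carcinoma cells often keep part of this programme and silence the rest, and the CDX1 promoter is a known site of methylation in colorectal cancer lines.

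The response of the 10 genes was uneven. ANPEP, near 0 in control cells, was present in all 3 5aza libraries, and CDX1, listed at 0 in every control library, was detected at a low level in every 5aza library. CDX2, KLF4 and DPP4 were expressed in both groups and did not pass the test. CA2 fell slightly. FABP1 was listed at 0 in all 6 libraries and CDH17 stayed under 0.1 FPKM in all 6, so these are the genes that stayed silent, and VIL1 and LGALS4 stayed under 0.5 FPKM.

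Values are FPKM, the fragments of a gene scaled to its length and to the library's mapped fragments, so levels can be set side by side between genes. Tests used limma on log2(FPKM + 0.1) over the 12360 genes that reached 0.5 FPKM in 3 or more libraries, with Benjamini-Hochberg adjustment over all of them; an adjusted p under 0.05 is called a rise or a fall. Of the 10 genes, 5 reached this filter and 5 did not. Over all genes tested, 10.6% (1310) rose and 13.1% (1619) fell, and the median log2 fold change was -0.01; after scaling to equal summed FPKM 2249 rose and 779 fell. The 5 tested enterocyte genes had 1 rise, 1 fall and 3 that did not pass, and their median log2 fold change was 0.05. ANPEP reached the filter through its 5aza values alone, so its call is not counted as evidence about the list; of the 341 tested genes with a control mean under 0.5 FPKM, 59.5% rose. In bulk RNA, fewer cells that express a gene and less RNA per cell cannot be told apart.

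Summed FPKM ran from 577735 to 592051 in the 5aza libraries and from 601916 to 628399 in the control libraries. Identifiers listed at 0 numbered 755 to 801 in the 5aza libraries and 1663 to 1761 in the control libraries. This difference moves with the results on ANPEP and CDX1, and its part in them was not tested. Between 0 and 2 identifiers per library were at 0 where both other libraries of the group had at least 1 FPKM, so a 0 here belongs to genes of low value. The line's epithelial markers were present: all 10 listed were tested, and KRT8, a keratin of simple epithelia, averaged 1151 FPKM in 5aza cells and 984 FPKM in control cells.

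**Figure D1:**
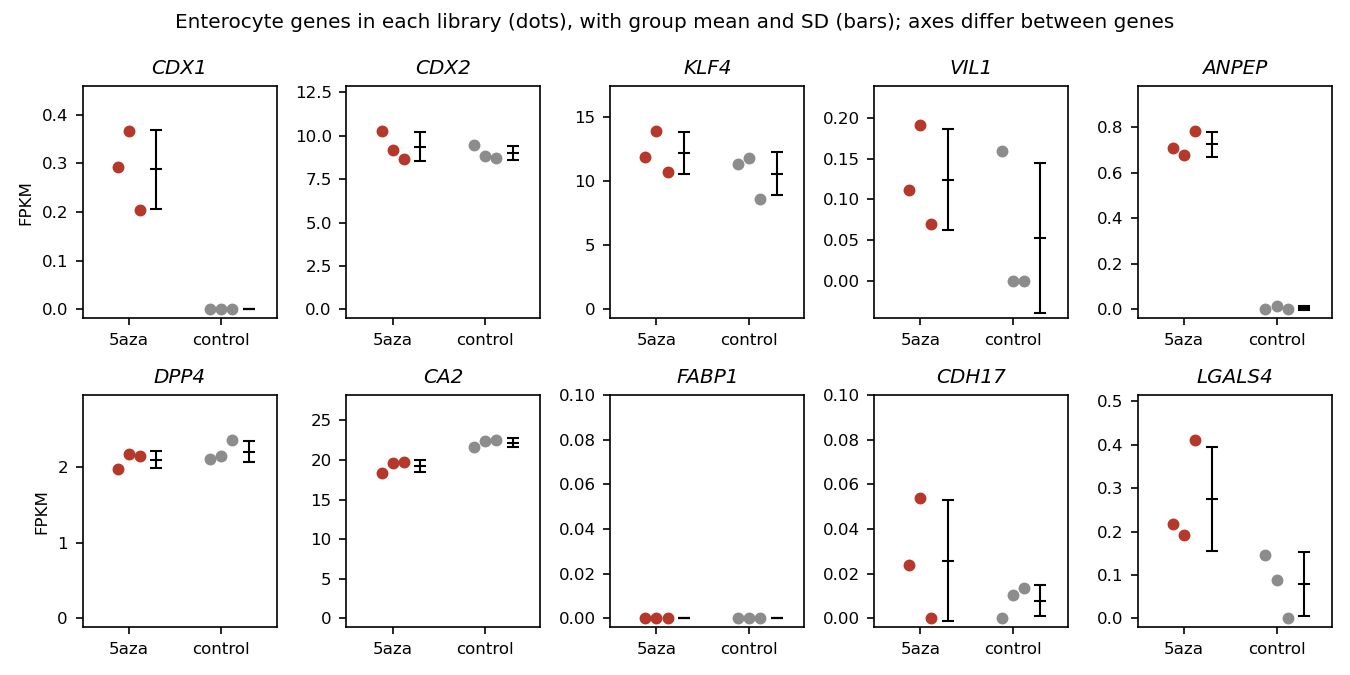
FPKM of each enterocyte gene (vertical axis, with 0 in view, on a scale of its own per gene) in the 3 5aza libraries (red dots) and the 3 control libraries (grey dots), with group mean and SD as black bars. ANPEP and CDX1 separate the groups from a control level at or near 0, CA2 is lower in every 5aza library, and FABP1 lies at 0 throughout.

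The caudal factors differed from each other in level. CDX1 (ENSG00000113722, chromosome 5, 150166795 to 150184558, plus strand, GRCh38) had 0.292, 0.367 and 0.205 FPKM in 5aza libraries 1 to 3, and was listed at 0 in all 3 control libraries. The groups did not overlap, and the mean was 0.288 ± 0.0813 FPKM in 5aza cells (SD, n = 3). A fold cannot be given against a group listed at 0. CDX1 was under the filter and was not tested with the other genes. With no filter on low values, limma called it higher in 5aza cells (log2 difference 1.93 on the log2(FPKM + 0.1) scale, adjusted p = 0.00109), and 10.7% of the 16627 genes in that fit rose. The call held with each library left out of that fit in turn (adjusted p between 0.00228 and 0.00780).

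CDX2 (ENSG00000165556, chromosome 13, 27962137 to 27971139, minus strand) had 10.3, 9.19 and 8.63 FPKM in 5aza libraries and 9.48, 8.83 and 8.72 FPKM in control libraries. The groups overlapped, with the highest and the lowest value both in 5aza libraries. Its log2 fold change was 0.05 (SE 0.076, limma adjusted p = 0.656), and turned to -0.02 without 5aza replicate 1. In 5aza cells CDX2 averaged 9.37 FPKM and CDX1 0.288 FPKM, so the level of CDX1 stayed far below that of its relative.

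KLF4 (ENSG00000136826, chromosome 9, 107484852 to 107490482, minus strand), the zinc finger factor, had 11.8, 13.9 and 10.7 FPKM in 5aza libraries and 11.3, 11.8 and 8.63 FPKM in control libraries. The groups overlapped, and its log2 fold change of 0.20 (SE 0.14, limma adjusted p = 0.318) did not pass.

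ANPEP (ENSG00000166825, chromosome 15, 89784889 to 89815401, minus strand), also called CD13, is an aminopeptidase of the brush border that trims peptides. It had 0.710, 0.678 and 0.784 FPKM in 5aza libraries, and 0, 0.0156 and 0 FPKM in control libraries 1 to 3. The 5aza libraries lay close together and far above the single control library with any value. Means were 0.724 ± 0.0544 FPKM in 5aza cells and 0.00519 ± 0.00899 FPKM in control cells (SD, n = 3 each). The log2 fold change of log2(FPKM + 0.1) was 2.97 (SE 0.28, limma adjusted p = 4.87e-04), which ranks 86 from the top among all genes tested. Its size rests on the pseudocount, being 5.74 with 0.01 and 0.78 with 1, and it was 1.81 under quantile normalization; the call held under all of these. Among the 4349 identifiers under 0.5 FPKM in every control library, 4.60% reached 0.5 FPKM in every 5aza library, and ANPEP was 1 of them. The level reached was low, at percentile 28.4 of all identifiers by 5aza mean.

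ANPEP is transcribed from separate promoters in epithelial and in myeloid cells, with the epithelial start nearer to the coding sequence. RefSeq gives a promoter window for each of 2 starts, and both are shown, with CpG in capitals, because they differ in the dinucleotide that DNA methyltransferases act on; a table of FPKM per gene does not tell which start the RNA came from. Windows run 5′ to 3′ on the minus strand of GRCh38.p14, from 250 bases before the start to 50 after it. The upstream window is chr15:89814803-89815102 and the downstream window is chr15:89806579-89806878.
ANPEP upstream start: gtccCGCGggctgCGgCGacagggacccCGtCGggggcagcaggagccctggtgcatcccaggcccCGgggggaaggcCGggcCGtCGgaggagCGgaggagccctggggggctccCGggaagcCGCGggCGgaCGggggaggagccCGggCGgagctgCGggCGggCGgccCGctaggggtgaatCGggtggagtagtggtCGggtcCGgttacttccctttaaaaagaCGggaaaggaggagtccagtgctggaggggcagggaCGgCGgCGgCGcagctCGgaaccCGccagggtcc
ANPEP downstream start: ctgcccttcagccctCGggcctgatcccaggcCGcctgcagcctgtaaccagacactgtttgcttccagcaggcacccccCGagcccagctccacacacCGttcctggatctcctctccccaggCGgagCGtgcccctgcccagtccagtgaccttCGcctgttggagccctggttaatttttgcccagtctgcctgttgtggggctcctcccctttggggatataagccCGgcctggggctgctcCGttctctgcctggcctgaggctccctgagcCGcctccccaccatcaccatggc
The upstream window held 32 CpG, an observed over expected ratio of 0.815, and the downstream window 10 CpG, a ratio of 0.331. The median window of the 35116 in the table held 14 CpG.

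DPP4 (ENSG00000197635, chromosome 2, 161992241 to 162074542, minus strand), also CD26, is a dipeptidyl peptidase of the brush border that also cleaves incretin hormones. It had 1.98, 2.18 and 2.15 FPKM in 5aza libraries and 2.11, 2.15 and 2.37 FPKM in control libraries. The groups overlapped. Its log2 fold change was -0.07 (SE 0.10, limma adjusted p = 0.682), and 0.01 after scaling to equal summed FPKM, so it has no settled direction. In 5aza cells the level of ANPEP stood below that of DPP4, at 0.724 beside 2.10 FPKM, whereas control cells had DPP4 at 2.21 FPKM beside almost no ANPEP.

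VIL1 (ENSG00000127831, chromosome 2, 218419092 to 218453295, plus strand) encodes villin, which bundles and severs actin in the microvillus core. It had 0.111, 0.191 and 0.0695 FPKM in 5aza libraries, and 0.159, 0 and 0 FPKM in control libraries. The single control library with a value lay inside the 5aza range, so the groups overlapped, and VIL1 was not tested. With no filter it did not pass (log2 difference 0.67, limma adjusted p = 0.308), but passed without control replicate 1 (1.13, adjusted p = 0.0470). VIL1 overlaps USP37, which averaged 6.61 FPKM in 5aza cells and 7.54 FPKM in control cells, and no source used here gives the strand setting of the counting, so reads of the pair may not be told apart.

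Of the absorptive genes, CA2 fell and FABP1 had no value above 0. CA2 (ENSG00000104267, chromosome 8, 85463852 to 85481493, plus strand), a cytosolic carbonic anhydrase that supplies bicarbonate and protons for ion exchange in the colon, had 18.4, 19.6 and 19.8 FPKM in 5aza libraries and 21.6, 22.4 and 22.6 FPKM in control libraries. Every 5aza library was below every control library. The log2 fold change was -0.20 (SE 0.045, limma adjusted p = 0.0156), which did not hold when control replicate 2 was left out (-0.20, adjusted p = 0.0534) or after scaling to equal summed FPKM (-0.12, adjusted p = 0.123). CA2 had the highest level of the 10 genes in either group.

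FABP1 (ENSG00000163586, chromosome 2, 88122982 to 88128116, minus strand), the liver-type fatty acid binding protein that is abundant in small intestinal enterocytes, was listed at 0 in all 3 5aza and all 3 control libraries. CDH17 (ENSG00000079112, chromosome 8, 94127171 to 94217303, minus strand), the liver-intestine cadherin and a known target of CDX2, had 0.0238, 0.0538 and 0 FPKM in 5aza libraries and 0, 0.0103 and 0.0134 FPKM in control libraries. Its groups overlapped, each with 1 library at 0. CDH17 was silent in both groups, in which CDX2 averaged 9.37 FPKM (5aza) and 9.01 FPKM (control).

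LGALS4 (ENSG00000171747, chromosome 19, 38801671 to 38813364, minus strand), galectin 4, a lectin of the intestinal surface that takes part in apical sorting, had 0.218, 0.193 and 0.412 FPKM in 5aza libraries and 0.146, 0.0897 and 0 FPKM in control libraries. Every 5aza value was above every control value, by a narrow margin between the closest libraries. LGALS4 was not tested, and with no filter it did not pass (log2 difference 1.12, limma adjusted p = 0.0837). Groups that do not overlap, with 5aza higher, occurred in 21.4% of the 16627 identifiers with any value, with 5aza lower in 17.2%, and in either direction in 38.7%. Among the enterocyte genes ANPEP, CDX1 and LGALS4 were of the first kind and CA2 of the second.

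Of 2702 identifiers under 0.1 FPKM in every control library, 13.2% had at least 0.1 FPKM in every 5aza library and 61.4% stayed under 0.1 FPKM in all 6. The enterocyte genes that began in this state were ANPEP, CDX1, CDH17 and FABP1. ANPEP and CDX1 went to the first class, and CDH17 and FABP1 stayed in the second.

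**Figure D2:**
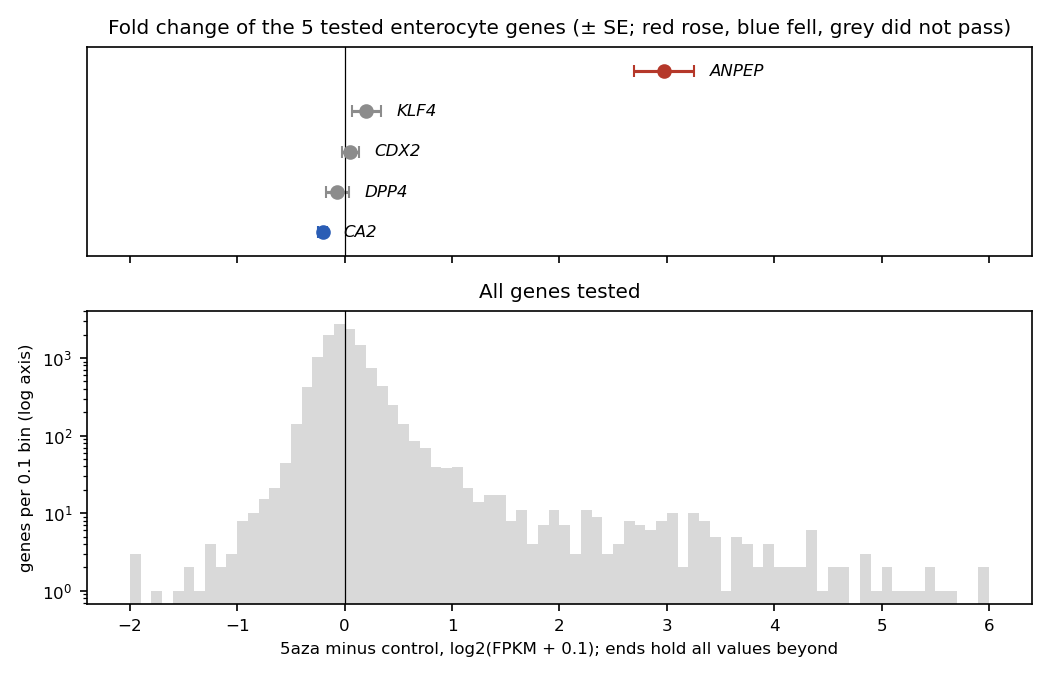
Upper panel: 5aza minus control difference in log2(FPKM + 0.1) of the 5 tested enterocyte genes, with SE as bars (red rose, blue fell, grey did not pass). Lower panel: number of genes per 0.1 bin of the same difference over all genes tested, on a log axis; ANPEP at 2.97 lies in the long right tail and the other 4 lie in the bulk.

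Promoter windows were given for 6 of the 10 genes, ANPEP, CDX2, DPP4, FABP1, KLF4 and LGALS4. They fell into a CpG-rich and a CpG-poor kind. Of the genes with a window, those expressed in both groups were CpG-rich: KLF4 had 33 CpG (ratio 0.934), DPP4 34 CpG (0.840) and CDX2 16 CpG (0.844). CA2, also expressed in both groups, had no window. The genes at or near 0 in control cells with only a CpG-poor window were FABP1 with 7 CpG (0.374) and LGALS4 with 7 CpG (0.238). ANPEP, also near 0 in control cells, had a window of each kind, so CpG content did not divide the genes by level. Windows of CDX2 (chr13:27969266-27969565), FABP1 (chr2:88128013-88128312) and LGALS4 (chr19:38812896-38813195), all on the minus strand, stand here for the steady gene, the silent gene and the gene of low level, again with CpG in capitals.
CDX2: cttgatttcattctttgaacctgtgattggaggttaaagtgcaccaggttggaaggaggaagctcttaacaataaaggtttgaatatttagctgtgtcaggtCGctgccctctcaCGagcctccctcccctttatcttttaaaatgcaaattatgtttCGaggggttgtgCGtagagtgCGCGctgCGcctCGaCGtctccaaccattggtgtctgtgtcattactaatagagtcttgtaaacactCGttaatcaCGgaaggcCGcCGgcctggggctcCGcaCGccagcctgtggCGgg
FABP1: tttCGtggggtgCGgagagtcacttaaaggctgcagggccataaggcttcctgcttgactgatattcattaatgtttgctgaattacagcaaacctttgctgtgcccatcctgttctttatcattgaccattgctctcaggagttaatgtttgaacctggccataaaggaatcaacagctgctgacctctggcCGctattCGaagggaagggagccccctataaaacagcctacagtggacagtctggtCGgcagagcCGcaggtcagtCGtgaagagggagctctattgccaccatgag
LGALS4: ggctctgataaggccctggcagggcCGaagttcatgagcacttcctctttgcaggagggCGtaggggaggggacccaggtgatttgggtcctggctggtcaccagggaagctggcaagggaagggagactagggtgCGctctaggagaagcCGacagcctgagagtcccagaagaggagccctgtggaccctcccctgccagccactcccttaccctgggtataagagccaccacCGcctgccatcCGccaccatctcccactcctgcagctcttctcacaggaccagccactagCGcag
The word TTTATG, bound by CDX factors, was searched on both strands and had 1 match, in FABP1, where 10.6% of all windows hold it. The word CACCC, bound by KLF factors, matched in both ANPEP windows (2 and 1), in FABP1 (1) and in LGALS4 (1), and 59.9% of all windows hold it. Among genes under 0.1 FPKM in every control library, 13.7% of 780 with a CpG ratio of at least 0.6 reached 0.1 FPKM in every 5aza library, and 9.77% of 1157 with a lower ratio did. DNA methylation of these windows was not analysed here.

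**Figure D3:**
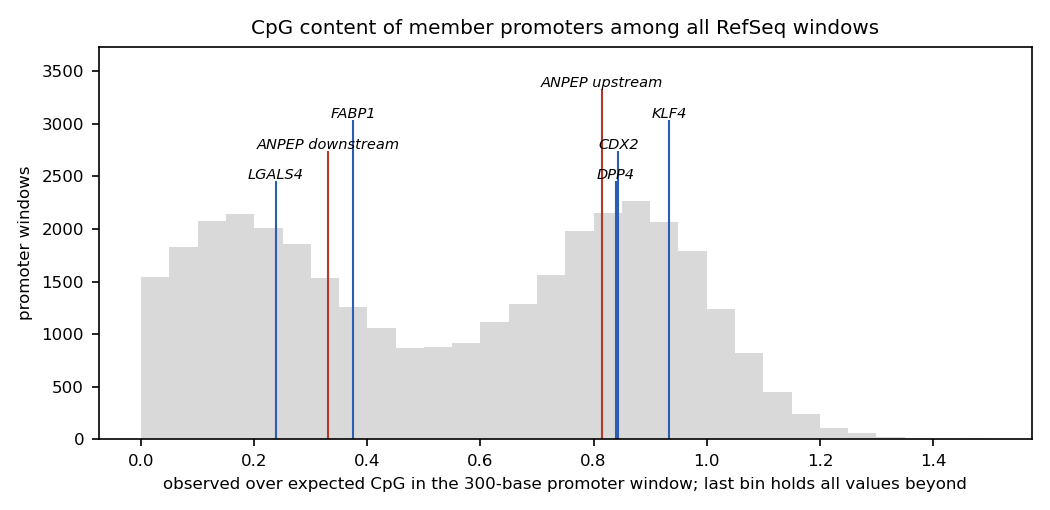
Number of RefSeq promoter windows (vertical axis) by their ratio of observed to expected CpG (horizontal axis), with the windows of the enterocyte genes as lines (red for ANPEP, blue for the others). The upstream ANPEP window, DPP4, CDX2 and KLF4 lie above 0.6, and LGALS4, the downstream ANPEP window and FABP1 below it.

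The rest of the intestinal programme was described with lists of further genes. In a list of 24 intestinal transcription factors, 16 were tested, of which 1 rose, 0 fell and 15 did not pass, and 4 were silent, that is under 0.1 FPKM in all 6 libraries. The median log2 fold change of the tested factors was 0.05. The rise was of FOXA2, a forkhead factor of endoderm, with 0.652, 0.893 and 1.27 FPKM in 5aza libraries and 0.237, 0.298 and 0.363 FPKM in control libraries (log2 fold change 1.35, SE 0.27, limma adjusted p = 0.0118). FOXA2 too reached the filter through 5aza values alone, and its call was lost under quantile normalization (adjusted p = 0.0719). HNF4A, the nuclear receptor that works beside CDX2 (chosen with its values in view), averaged 2.85 ± 0.259 FPKM in 5aza cells and 2.22 ± 0.168 FPKM in control cells (SD, n = 3 each; limma adjusted p = 0.0572). It passed after scaling to equal summed FPKM (adjusted p = 0.0340) and without the variance trend (adjusted p = 0.0441). ELF3, an epithelial ETS factor, averaged 24.1 and 22.2 FPKM in 5aza and control cells and passed only with that scaling among the alternatives run (adjusted p = 0.0138).

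Of 18 brush border structure genes with values, 12 were tested, with 4 rises, 1 fall and a median log2 fold change of 0.06. MYO6, a minus-end directed myosin at the base of microvilli, averaged 26.0 ± 0.892 FPKM in 5aza cells and 19.2 ± 0.0306 FPKM in control cells (SD, n = 3 each; log2 fold change 0.44, limma adjusted p = 4.42e-04). STX3, the syntaxin of apical delivery, averaged 19.98 and 15.2 FPKM in 5aza and control cells (log2 fold change 0.39, adjusted p = 0.00169 by limma). The other rises were of MISP (16.95 and 13.2 FPKM in 5aza and control cells), an actin-binding protein, and of COBL (7.68 and 6.45 FPKM), an actin nucleator, both chosen after their values were seen. The COBL call was lost without any 1 of 4 libraries, with the replicate block (adjusted p = 0.0611) and under quantile normalization (0.0532). EPS8, which caps actin at microvillus tips, fell to 25.9 FPKM in 5aza cells, against 28.9 FPKM in control cells. The EPS8 call was lost after scaling to equal summed FPKM (adjusted p = 0.265) and without any 1 of 5 libraries. It was also lost under quantile normalization (0.0588) and without the variance trend (0.0577). EZR, which encodes ezrin, the linker of membrane and actin, was the most abundant of the list at 614.5 FPKM in 5aza cells and 611.4 FPKM in control cells (limma adjusted p = 0.883), and passed only after scaling to equal summed FPKM among the alternatives run (adjusted p = 0.0237). Villin's list thus held several well-expressed genes in both groups, although VIL1 itself was near 0.

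Of 15 brush border hydrolases with values, 6 were tested, of which 2 rose, 0 fell and 4 did not pass, and 5 were silent. Beside ANPEP, the rise was of GGT1, a gamma-glutamyltransferase of glutathione breakdown, with 11.6, 10.6 and 12.4 FPKM in 5aza libraries and 8.62, 8.77 and 7.60 FPKM in control libraries (log2 fold change 0.47, SE 0.081, limma adjusted p = 0.00655). The disaccharidase genes SI and LCT, chosen after their values were seen, averaged 0.00470 and 0.0445 FPKM in 5aza cells and 0 and 0.0358 FPKM in control cells. ALPI, intestinal alkaline phosphatase and likewise chosen, averaged 0.0385 FPKM in 5aza cells and 0.00425 FPKM in control cells.

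Absorptive transport and lipid handling was the list with the most silent genes: of 34 with values, 15 were silent and 10 were tested, of which 2 rose, 1 fell and 7 did not pass (median log2 fold change 0.05). APOA4, APOB, APOC3 and RBP2, which serve fat and retinol absorption and were chosen after their values were seen, were listed at 0 in all 6 libraries, like FABP1. Not all low genes stayed so. In the fit with no filter, the transporter genes SLC5A1 and SLC7A9, likewise chosen, were called higher (limma adjusted p = 0.019 and 0.0361). They averaged 0.0920 and 0.104 FPKM in 5aza cells and 0.0112 and 0.0346 FPKM in control cells. ABCB1, an efflux pump, averaged 1.87 FPKM in 5aza cells and 1.35 FPKM in control cells (limma adjusted p = 0.0445), and SLC26A2, a sulfate transporter, 6.05 and 5.12 FPKM (adjusted p = 0.0356). Both calls were lost without any 1 of the 6 libraries and with the replicate block (adjusted p = 0.0596 for ABCB1 and 0.0661 for SLC26A2). Under quantile normalization the ABCB1 change was 0.28 (adjusted p = 0.157) and the SLC26A2 change 0.18 (0.0873). CA2 was the fall.

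**Figure D4:**
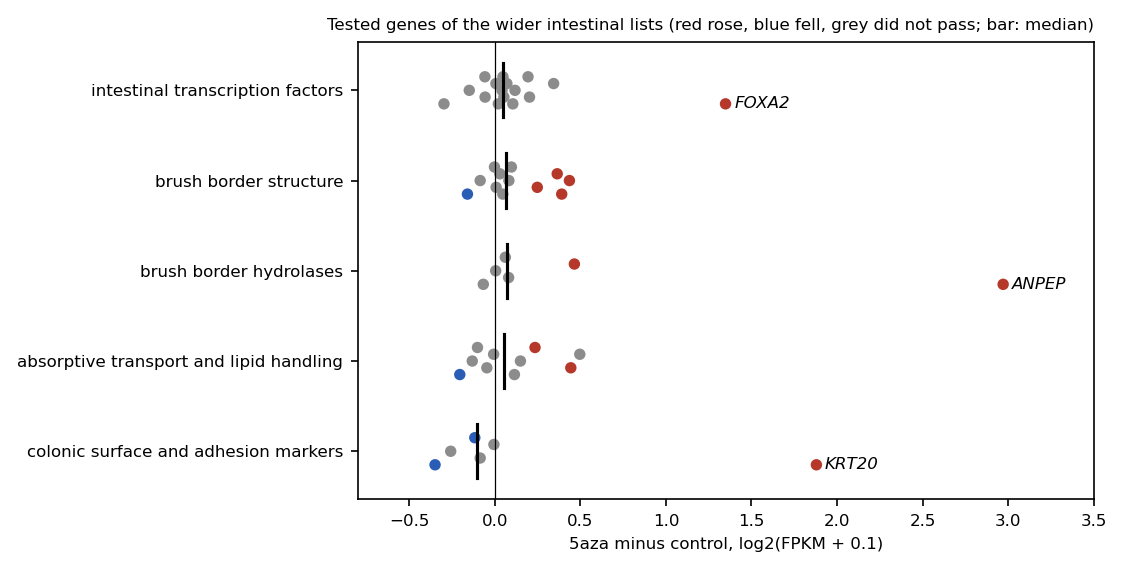
5aza minus control difference in log2(FPKM + 0.1) of each tested gene in 5 intestinal lists (red rose, blue fell, grey did not pass; black bar, median). Most genes lie within 0.5 of 0, and ANPEP, KRT20 and FOXA2 lie beyond 1.

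Of 19 colonic surface and adhesion genes with values, 6 were tested, of which 1 rose, 2 fell and 3 did not pass, and 7 were silent. The tested genes had a median log2 fold change of -0.10. KRT20, a keratin of differentiated intestinal cells, had 3.04, 3.09 and 3.09 FPKM in 5aza libraries and 0.878, 0.575 and 0.870 FPKM in control libraries. The groups were far apart for their spread, with a log2 fold change of 1.88 (SE 0.17, limma adjusted p = 4.08e-04), held under every alternative run. CLDN3, a tight junction claudin, fell to 14.4 ± 1.03 FPKM in 5aza cells, against 18.4 ± 0.857 FPKM in control cells (SD, n = 3 each; limma adjusted p = 0.00820). EPCAM, an epithelial adhesion molecule, fell to 153 FPKM in 5aza cells, against 166 FPKM in control cells, a call lost under quantile normalization (adjusted p = 0.830), after scaling to equal summed FPKM (0.344) and without any of 4 libraries (0.0556 to 0.0781).

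**Figure D5:**
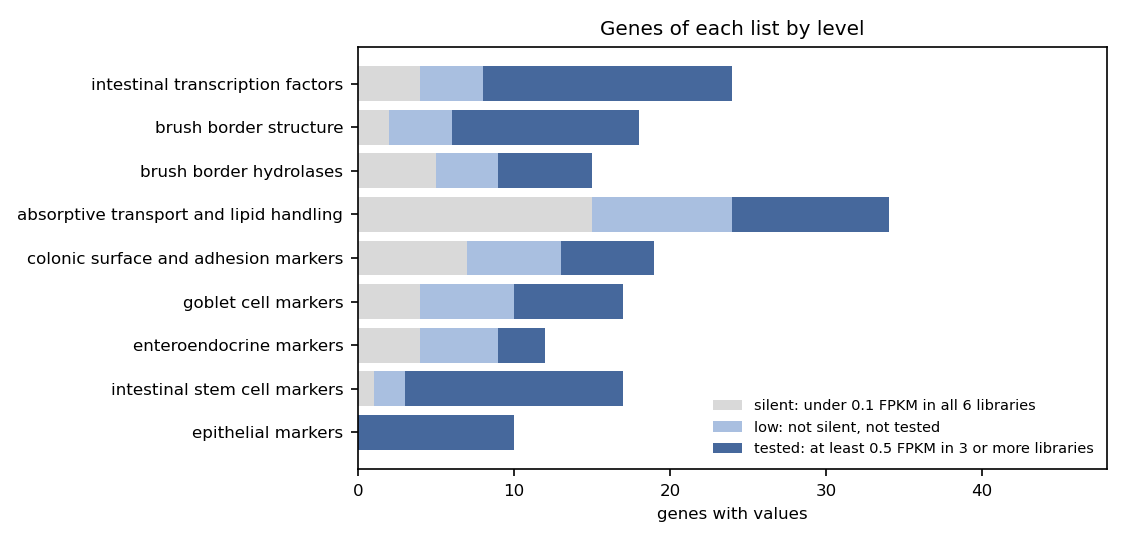
Number of genes with values (horizontal axis) in each list, split into silent (under 0.1 FPKM in all 6 libraries), low (neither silent nor tested) and tested. Absorptive transport has the longest silent part with 15 of 34, and the epithelial markers have none.

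The families of the 10 genes gave further context. Among the KLF genes, 13 of 15 with values were tested, 2 rose and 0 fell, KLF6 and KLF10, factors of stress and growth factor responses, with KLF6 at 29.6 FPKM in 5aza cells and 22.6 FPKM in control cells (limma adjusted p = 0.00161) and KLF10 at 53.6 and 45.9 FPKM (adjusted p = 0.00328). KLF4 did not pass, with a log2 fold change of 0.20 close to the 0.22 of KLF10 but a larger SE (0.14 and 0.032). Of 3 caudal and ParaHox genes with values, 2 were tested and neither passed.

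Of 6 tested carbonic anhydrases, 2 rose and 2 fell. CA9, a membrane-bound enzyme known for its induction in hypoxia, averaged 1.52 ± 0.180 FPKM in 5aza cells and 0.523 ± 0.118 FPKM in control cells (SD, n = 3 each; log2 fold change 1.39, limma adjusted p = 0.00247). CA12, another membrane-bound enzyme, averaged 3.12 FPKM in 5aza cells and 2.10 FPKM in control cells (adjusted p = 0.0166 by limma). CA11, a relative with no known enzyme activity, fell to 10.9 FPKM in 5aza cells, against 13.3 FPKM in control cells (adjusted p = 0.0166 by limma). The CA12 and CA11 calls were lost without 5aza replicate 2 (adjusted p = 0.0598 and 0.0538), and that of CA11 also without control replicate 2 (0.0551). CA2 was the most abundant carbonic anhydrase in both groups. Of 5 FABP genes with values 2 were tested, 1 fell and 2 were silent. FABP6, an ileal bile acid binding protein, averaged 5.33 FPKM in 5aza cells and 5.48 FPKM in control cells and did not pass (limma adjusted p = 0.876). FABP5, the fatty acid binding protein of epidermis, was the more abundant and fell to 278.5 ± 9.04 FPKM in 5aza cells, against 322.7 ± 11.1 FPKM in control cells (SD, n = 3 each; limma adjusted p = 0.00672), a call lost under quantile normalization (adjusted p = 0.0705).

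In the villin and gelsolin family, 4 of 8 genes with values were tested, of which 2 rose and 1 fell. GSN, gelsolin, which severs and caps actin, averaged 63.1 FPKM in 5aza cells and 52.8 FPKM in control cells (log2 fold change 0.26, limma adjusted p = 0.00414). SVIL, supervillin, averaged 5.71 FPKM in 5aza cells and 4.38 FPKM in control cells (adjusted p = 0.0120 by limma). CAPG, a capping protein, fell to 78.7 FPKM in 5aza cells, against 84.95 FPKM in control cells (adjusted p = 0.0494 by limma), which did not hold with any single library left out (adjusted p between 0.0699 and 0.147) or after scaling to equal summed FPKM (0.482). VIL1 was thus far below its relatives GSN and CAPG in level in both groups, but other relatives were low too. AVIL, SCIN and VILL were not tested. They averaged 0.0349, 0.143 and 0.615 FPKM in 5aza cells and 0.0415, 0.0720 and 0.305 FPKM in control cells. VIL1 averaged 0.124 and 0.0531 FPKM.

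Relatives of the peptidases were described likewise. Of 12 M1 aminopeptidases, all 12 were tested, 3 rose and 0 fell: beside ANPEP, ERAP2, which trims peptides in the endoplasmic reticulum, averaged 0.933 FPKM in 5aza cells and 0.518 FPKM in control cells (log2 fold change 0.76, limma adjusted p = 0.0309). LVRN, chosen after its values were seen, averaged 7.04 FPKM in 5aza cells and 5.40 FPKM in control cells (adjusted p = 0.0431 by limma). ANPEP had the highest fold change of the 3 and the lowest level in 5aza cells. Of 5 genes of the DPP4 family, 1 fell and 4 did not pass, the fall being DPP9, a cytosolic peptidase, at 30.1 FPKM in 5aza cells and 34.3 FPKM in control cells (limma adjusted p = 0.0217). The calls of ERAP2 and LVRN each failed with any of 5 libraries left out, and that of DPP9 with any of 4 (adjusted p up to 0.104, 0.113 and 0.0745). Under quantile normalization the ERAP2 change was 0.42 (adjusted p = 0.170) and the LVRN call was lost (0.0602), and after scaling to equal summed FPKM the DPP9 change was -0.11 (0.0811).

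Among galectins, 5 of 7 genes with values were tested, 3 rose and 0 fell. LGALS7B had 7.68, 9.92 and 10.1 FPKM in 5aza libraries and 0.671, 0.567 and 1.26 FPKM in control libraries (log2 fold change 3.38, SE 0.26, limma adjusted p = 1.99e-04). The groups were far apart; its near-identical copy LGALS7 makes the split of reads between the pair uncertain. LGALS1, the most abundant galectin, averaged 1714 FPKM in 5aza cells and 1497 FPKM in control cells (adjusted p = 0.00463 by limma), and LGALS8 averaged 15.2 and 13.2 FPKM (adjusted p = 0.0218), the LGALS8 call failing with any of 4 libraries left out (adjusted p up to 0.0707). Both tested cadherins rose. CDH1, E-cadherin of adherens junctions, averaged 16.2 ± 0.703 FPKM in 5aza cells and 12.7 ± 0.132 FPKM in control cells (SD, n = 3 each; log2 fold change 0.35, limma adjusted p = 0.00265). CDH3, P-cadherin, averaged 45.6 FPKM in 5aza cells and 39.8 FPKM in control cells (adjusted p = 0.00610 by limma). CDH17 was therefore silent in cells that expressed CDH1 and CDH3 in both groups. Low levels were not particular to CDH17, which was among the 3 silent genes of the 8 on the cadherin list with values. CDH2, CDH4 and CDH13 were not tested. They averaged 0.152, 0.0813 and 0.102 FPKM in 5aza cells and 0.0102, 0.0595 and 0 FPKM in control cells.

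Neighbours within 100000 bases, chosen after their values were seen, were looked at beside LGALS4, ANPEP, CDX1, CA2, VIL1 and FABP1. No neighbour of CDX2, DPP4 or CDH17 was called in the main fit. LGALS4 itself was not called in any fit. CA2 had 1 neighbour, CA3, which was not tested. LGALS4 had 9 neighbours in the table, 7 of them tested, of which 2 rose and 1 fell. LGALS7B was 1 of the rises, and RINL the other, at 9.50 FPKM in 5aza cells and 7.40 FPKM in control cells (limma adjusted p = 0.0123). The fall was of ECH1, a peroxisomal and mitochondrial isomerase, at 330.8 FPKM in 5aza cells and 392.5 FPKM in control cells (adjusted p = 0.00243 by limma). ANPEP had 5 neighbours, of which 3 were tested, 0 rose and 1 fell, MESP1, a mesoderm factor gene, at 7.64 FPKM in 5aza cells and 9.58 FPKM in control cells (limma adjusted p = 0.0457, up to 0.135 with 1 library left out, and 0.0865 after scaling to equal summed FPKM). The rise of ANPEP was thus not shared by a tested neighbour. None of the 3 neighbours of CDX1 reached the filter. In the fit with no filter, in which CDX1 was called, its neighbour CSF1R, a myeloid receptor gene, was called higher too, with 0.353, 0.267 and 0.279 FPKM in 5aza libraries and 0.0839, 0.0489 and 0.0413 FPKM in control libraries (log2 difference 1.34, limma adjusted p = 0.00356). The other neighbours, PDGFRB and CAMK2A, lie nearer to CDX1 and did not pass in that fit (limma adjusted p = 0.3625 and 0.435). Of 5 neighbours of VIL1, 3 were tested, 0 rose and 1 fell. The fall was of CTDSP1, at 30.0 FPKM in 5aza cells and 36.5 FPKM in control cells (limma adjusted p = 0.00164). Of 3 neighbours of FABP1, 1 was tested and did not pass. With no filter, its neighbour THNSL2 was called higher, at 0.0793 FPKM in 5aza cells and 0 in control cells (limma adjusted p = 0.00622).

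Markers of other cell types were set beside these values. All 10 epithelial markers were tested, 5 rose and 2 fell, with a summed level of 3093 to 3170 FPKM in 5aza libraries and 2596 to 2757 FPKM in control libraries. KRT19, a keratin of simple epithelia, averaged 936 ± 24.9 FPKM in 5aza cells and 740 ± 29.2 FPKM in control cells (SD, n = 3 each; limma adjusted p = 0.00115). The falls were of EPCAM, described above, and of ESRP1. ESRP1 fell to 41.8 FPKM in 5aza cells, against 45.9 FPKM in control cells (limma adjusted p = 0.0357). Its call was lost under quantile normalization (adjusted p = 0.125), after scaling to equal summed FPKM (0.362) and in several other fits. Of 9 fibroblast markers with values, 3 were tested, 2 rose and 3 were silent, and their sum ran from 33.2 to 35.2 FPKM in 5aza libraries and from 31.4 to 31.8 FPKM in control libraries. COL6A3, a collagen chain, averaged 1.195 ± 0.151 FPKM in 5aza cells and 0.0494 ± 0.0211 FPKM in control cells (SD, n = 3 each; log2 fold change 3.12, limma adjusted p = 2.44e-04). Like ANPEP, COL6A3 reached the filter through its 5aza values alone. PDGFRA, a growth factor receptor gene and the most abundant of the list, averaged 25.7 FPKM in 5aza cells and 26.7 FPKM in control cells. It did not pass (limma adjusted p = 0.308). Of 10 leukocyte markers with values, 1 was tested and rose, CD68, a lysosomal protein (limma adjusted p = 0.0144, and 0.0509 without 5aza replicate 2), and their sum ran from 6.31 to 7.06 FPKM in 5aza libraries and from 3.56 to 4.65 FPKM in control libraries. PTPRC, the defining leukocyte antigen CD45 and chosen after its values were seen, had 0.0508, 0.108 and 0.0359 FPKM in 5aza libraries and 0.00612, 0 and 0.0178 FPKM in control libraries. Of 8 endothelial markers with values, 1 was tested and did not pass and 3 were silent, and their sum ran from 7.77 to 10.1 FPKM in 5aza libraries and from 6.45 to 8.24 FPKM in control libraries. ANPEP is also a myeloid marker. The epithelial, fibroblast and leukocyte sums were higher in every 5aza library, as ANPEP was, and the endothelial sums overlapped between groups. Most of the epithelial sum was KRT8, KRT18 and KRT19, which rose and averaged 1151, 622 and 936 FPKM in 5aza cells. Most of the fibroblast sum was PDGFRA, which did not rise, and most of the leukocyte sum was CD68. None of these sums therefore describes its list as a whole. The part of these markers in the rise of ANPEP was not tested.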

How the data were processed

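RNA of HCT116 cells was sequenced in 3 5aza and 3 control libraries. The values are FPKM as deposited by the authors, per the file's name and columns, in 1 table of 16726 rows; 11 identifiers had a repeat, and of those the higher row by mean entered. The program behind the FPKM, the strandedness and the depth were not given in the sources used here. Per the submitters' processing notes the tools included STAR 2.5.1b and HTSeq 0.6.0; GRCh38 stands there beside Rnor_6.0 as genome build, and what each was used for is not said. Whole reads could not be recovered from the steps between low values, so depth is unknown and no counting intervals are given.

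The tool for all tests was limma 3.58.1 (R 4.3.3; linear fit with empirical Bayes and a variance trend, two-sided, Benjamini-Hochberg), on log2(FPKM + 0.1) of genes that reached 0.5 FPKM in 3 or more libraries; fold changes on this scale understate the change of low genes. The script was tested on simulated data. An exact permutation test of 3 against 3 libraries cannot go below p = 0.1. Silent means under 0.1 FPKM in all 6 libraries. The 10 genes and the 22 further lists were chosen with earlier results of these data known. From each list the text names up to 2 rises and 2 falls, and only some of the genes of highest mean. Most genes of highest mean that are left out did not pass or were not tested, so the named genes lean towards those called. Other genes are said to be chosen after their values were seen. The settings named as losing a call are not a full list for every gene. Replicate numbers were not used to pair the libraries in the main fit. Coordinates come from GENCODE 29 (GRCh38), matched by Ensembl identifier, and promoter windows from RefSeq (GRCh38.p14).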

Additional observations from a re-analysis of the deposited data

How the results depend on the processing

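ANPEP rose under every alternative that kept it in the test (adjusted p between 2.76e-05 and 0.00444). By construction it left the test under a filter of 1 FPKM, under a filter on a mean of 0.5 FPKM and without any 1 5aza library. In those fits the count of enterocyte genes that rose was 0. With the main filter and 1 library left out, the count was 0 to 1. Without a filter it was 2, ANPEP and CDX1, and both were also called with each library left out of that fit. The count that fell was 0 after scaling to equal summed FPKM and 0 to 1 with 1 library left out. CA2 had a log2 fold change of -0.12 after that scaling and -0.22 to -0.17 with 1 library left out, and without the filter as well it was -0.20 without control replicate 2 (adjusted p = 0.0612) and -0.19 without control replicate 3 (adjusted p = 0.0503). The CDX2 change turned to -0.0153 without 5aza replicate 1 (up to 0.11 with another library left out), DPP4 to 0.0092 after scaling to equal summed FPKM, and EZR to -0.0161 without control replicate 3 (up to 0.0213 with another left out); the cause was not tested.

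For genes not tested, the log2 difference moved with the pseudocount. With 0.01 it was 4.86 for CDX1, 2.32 for LGALS4, 2.28 for VIL1 and 0.73 for CDH17, and with 1 it was 0.36 for CDX1 and 0.24 for LGALS4. Under quantile normalization it was 1.64 for CDX1, -0.12 for CDH17 and -0.0398 for FABP1. With no filter it was 1.93 for CDX1 (1.79 to 2.10 with 1 library left out, 1.92 without 5aza replicate 1), and VIL1 had 1.13 without control replicate 1, an alternative chosen after seeing the data. A silence threshold of 0.05 FPKM left 1 silent gene and one of 0.5 FPKM gave 5.

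Over all genes, 2249 rose and 779 fell after scaling to equal summed FPKM, 1041 fell without the variance trend, and with 1 library left out 693 to 1084 rose and 940 to 1523 fell. Of 125 tested genes in the further lists, 34 (27.2%, against 10.6% of all tested genes) rose (19 to 32 with 1 library left out) and 10 (8%, against 13.1%) fell (6 under quantile normalization, 4 after equal scaling, 5 without the trend, 3 to 7 with 1 library left out). These lists also hold enterocyte genes such as ANPEP and CA2, and were chosen with earlier results of these data known. Among the rises, ANPEP, FOXA2, CCK, FCGBP and COL6A3 reached the filter through 5aza values alone. The shares are therefore not counted as evidence about the lists. Libraries with the same number deviated together only weakly (correlation 0.048, 0.077 and 0.068). Each 5aza library still correlated best with its own number, a hint from the data, and the numbers alone do not settle a pairing. With the replicate block 1259 rose and 1673 fell, and no call of the enterocyte genes changed. The limma adjusted p of KLF4 went from 0.318 to 0.0735 with the block. Depth is unknown, so a value listed at 0 sets no limit on expression.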

Other observations

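The secretory and crypt lineages of the intestine, which share the epithelium with enterocytes, gave these counts. Of 17 goblet cell markers with values, 7 were tested, 2 rose, 0 fell and 4 were silent. CREB3L1, a factor of secretory cells, averaged 0.981 ± 0.0323 FPKM in 5aza cells and 0.476 ± 0.0862 FPKM in control cells (SD, n = 3 each; log2 fold change 0.92, limma adjusted p = 0.0116, and 0.0518 without 5aza replicate 2). Under quantile normalization its change was 0.58 (adjusted p = 0.0601). FCGBP, a mucus protein, averaged 0.742 FPKM in 5aza cells and 0.362 FPKM in control cells (adjusted p = 0.0177 by limma, and 0.0517 without control replicate 2). FCGBP reached the filter through its 5aza values alone, and under quantile normalization its change was 0.40 (adjusted p = 0.211). TFF3, a trefoil peptide of goblet cells chosen after its values were seen, had 0.28, 0.514 and 0.528 FPKM in 5aza libraries and was listed at 0 in all 3 control libraries. In the fit with no filter, in which 10.7% of 16627 genes rose and 1461 fell, TFF3 was called higher (limma adjusted p = 9.17e-04). ATOH1, the secretory lineage factor, was called lower in that fit, at 0.0782 FPKM in 5aza cells and 0.172 FPKM in control cells (log2 difference -0.61, limma adjusted p = 0.0486). TFF1, another trefoil gene, was listed at 0 in all 6 libraries; ATOH1 and TFF1 were also chosen with their values in view.

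Of 12 enteroendocrine markers with values, 3 were tested and 2 rose, CCK and PAX6. CCK, the gene of the hormone cholecystokinin, averaged 1.17 FPKM in 5aza cells and 0.263 FPKM in control cells (log2 fold change 1.81, limma adjusted p = 0.00302), and it reached the filter through its 5aza values alone. PAX6, an endocrine lineage factor, averaged 2.51 FPKM in 5aza cells and 1.80 FPKM in control cells (adjusted p = 0.0476 by limma), which did not hold with any single library left out. Of 4 Paneth cell markers with values, 1 was tested and did not pass. Of 17 intestinal stem cell markers with values, 14 were tested, 1 rose and 1 fell. SOX9, a crypt factor, averaged 53.9 FPKM in 5aza cells and 45.95 FPKM in control cells (limma adjusted p = 0.0248, failing with any of 4 libraries left out, up to 0.0790), and CDCA7, a chromatin protein of dividing cells, fell to 31.1 FPKM in 5aza cells, against 41.5 FPKM in control cells (limma adjusted p = 2.44e-04).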
